A study of Mus musculus with 8 samples.

Results

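Around Plxna1 on mouse chromosome 6, acetylation of histone H3 at lysine 27 (H3K27ac) was higher in microglial nuclei of mice without Grn than in those of wild-type mice over 2 stretches, whose lengths depend on the gap allowed between called regions (104 and 107 kb with gaps of up to 50 kb, 61.9 and 56.4 kb with gaps of up to 20 kb). Most of the regions that gained the mark lie between genes. The domain was defined as all accessible regions of the deposited table that start between 88900000 and 89500000 on chromosome 6 and that the table assigns to 4930512J16Rik, 4933427D06Rik, Plxna1 or Chchd6 as the nearest promoter. This gave 52 of the 129304 regions, namely 23 of 4930512J16Rik, 13 of 4933427D06Rik and 16 of Plxna1. Chchd6 had 0 regions inside these bounds, and its 4 regions lie just beyond them. The first region of the domain starts at 89000102 and the last at 89455154, and the nearest Chchd6 region outside starts at 89553102. The domain was picked because GrnKO H3K27ac values were above WT values there, so the differences at its regions are given as a description and no p-value is attached to them.

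The study profiled nuclei sorted from brains of C57BL/6 mice aged 2 years as PU.1+, OLIG2- and NEUN-, a gate for nuclei with the myeloid transcription factor PU.1, which in brain are mainly microglia. WT and GrnKO mice were compared, GrnKO being the labels' name for loss of Grn, the progranulin gene; the labels used here do not describe the allele. Each of the 2 replicates per genotype was a pool of nuclei from 2 mice, with an H3K27ac ChIP-seq library and an input library of the same kind of chromatin without antibody, 8 libraries in all. No treatment is named. The brain of origin holds many cell types, and an H3K27ac value cannot separate more acetylation per nucleus from more nuclei that carry it.

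H3K27ac marks active promoters and enhancers, and a cluster of distal regions that gain the mark together is often called an enhancer cluster. Plxna1 encodes plexin A1, a transmembrane receptor for semaphorins that guides axons and that in myeloid cells can pair with the TREM2 receptor and its adaptor TYROBP. Chchd6 encodes a subunit of MICOS, the complex that shapes the inner membrane folds of mitochondria. 4930512J16Rik and 4933427D06Rik are non-coding RNA genes of unknown function, and their names serve here mainly as position labels for the regions nearest to their starts.

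Acetylation was gained at the start of 4930512J16Rik, and no region was called at that of Chchd6. The sequences of these starts are shown as a description, and a link between them and the values below was not tested. Of the 4 genes, 3 had a promoter sequence in the RefSeq table (GRCm38.p6), and in all 3 a start there was the same base as the start that the deposited table implies. The first sequence is chr6:89285676-89285975, minus strand, 250 bases before to 50 bases after the start. The second is the 250 bases before the Chchd6 start, from the entry at chr6:89595603-89595902, minus strand. Capitals mark motif matches.
4930512J16Rik: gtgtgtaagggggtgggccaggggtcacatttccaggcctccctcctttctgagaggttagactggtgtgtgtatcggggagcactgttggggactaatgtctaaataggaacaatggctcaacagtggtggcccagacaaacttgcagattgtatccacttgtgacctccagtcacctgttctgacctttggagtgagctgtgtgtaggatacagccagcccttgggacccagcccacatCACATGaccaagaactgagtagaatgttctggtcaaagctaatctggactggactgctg
Chchd6: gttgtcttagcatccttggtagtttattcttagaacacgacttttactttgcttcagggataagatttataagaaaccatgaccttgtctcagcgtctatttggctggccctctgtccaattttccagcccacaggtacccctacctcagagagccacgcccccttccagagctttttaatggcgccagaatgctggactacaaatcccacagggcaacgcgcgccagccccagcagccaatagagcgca

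Both strands were searched for CACGTG and CATGTG, the E-boxes bound by the MiT/TFE family of lysosomal gene regulators, for GGAAGT, the core of PU.1 sites, and for TGANTCA, the AP-1 site. The 4930512J16Rik sequence held 1 match, CATGTG read on the opposite strand as CACATG, which begins 9 bases before the start. Of the 2 promoter entries of 4933427D06Rik, not printed, 1 held GGAAGT, read as ACTTCC, 30 bases after its start. Over all 32851 promoter sequences of that length, CATGTG occurred in 14.2%, CACGTG in 7.15%, GGAAGT in 23.8% and TGANTCA in 7.81%. The Chchd6 sequence held none of these letters in this window. A match is a description of the letters only.

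Values are scaled tags, that is, sequenced tags in an 800 bp region at a library total of 10000000. The H3K27ac libraries held 15491642.5 to 20030832 tags and the inputs 4078179 to 14415969. A value of 3 tags, taken as the floor of detection, is 1.498 to 1.94 scaled tags in the H3K27ac libraries. This floor covers counting error alone. The 2 Grn promoter regions summed to 879 and 883 scaled tags in WT and to 7.34 and 6.49 in GrnKO, as the labels say. WT replicate 1 stood apart, with 49.4% of its tags in listed regions against 63.3% to 65.7% in the other 3 libraries, and replicate 2 of both genotypes had signal at Y-linked starts (269.6 and 220.2 scaled tags) where replicate 1 had 5.81 and 0. At promoters, all 8 microglial markers were acetylated, with sums of 6066 to 8720 scaled tags per library. Sums were 0 to 4.99 over the 2 of 4 neuronal markers with a promoter region, 0 to 2.26 over 1 of 4 lymphocyte markers, 0.81 to 20.2 over 2 of 4 astrocyte markers, 68.6 to 91.8 over 5 of 5 of the oligodendrocyte lineage and 214 to 340.1 over 3 of 5 of border macrophages. At 1 of 3 endothelial markers, Flt1, the sum was 10.3 and 32.6 in WT and 156 in both GrnKO libraries, and at 1 of 5 monocyte and granulocyte markers, S100a8, it was 0 and 5.43 in WT and 22.02 and 20.2 in GrnKO. No promoter region was listed for the other markers of these lists. Whether these cells have a part in the values below was not tested.

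Summed over all 52 regions, the domain held 1137 and 1280.4 scaled tags in WT, and 5416 and 4828 in GrnKO. Both GrnKO libraries were far above both WT libraries, and the replicates of a genotype lay close together. The WT mean was 1209 ± 101 and the GrnKO mean 5122 ± 416 (SD over 2 libraries), a 4.24-fold difference. After TMM scaling, which takes most regions as unchanged between the libraries, the fold was 3.62, or 1.86 on the log2 scale. Within replicate number 1 it was 3.63 and within replicate number 2 it was 3.61. Without WT replicate 1 the log2 value was 1.94.

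**Figure D1:**
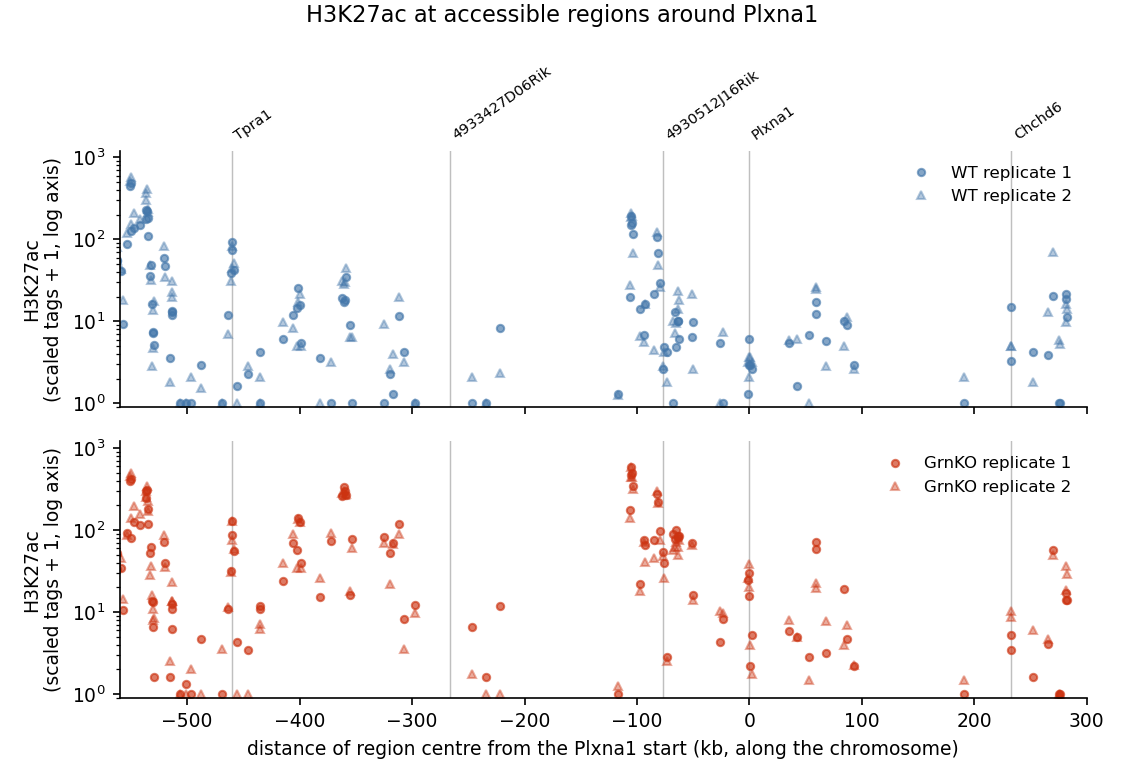
H3K27ac level of each listed region (scaled tags + 1, log axis) in the 2 WT libraries (top) and the 2 GrnKO libraries (bottom) against the distance of the region centre from the Plxna1 start in kb along the chromosome, with grey lines at gene starts. GrnKO values are higher near -361 kb, where 4 regions of 4933427D06Rik reach means of 269.6 to 314 scaled tags. They are also higher near -105 kb, where the strongest 4930512J16Rik region reaches 587. The Tpra1 regions within 20 kb of its start differ less, with sums of 246 and 209 in WT and 304 and 289 in GrnKO. Chchd6 regions are low in both panels.

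Of the 52 regions 41 passed the filter on low tags and entered the fit over all 80728 tested regions, and 11 did not. In that fit 31 of the 41 were higher and 0 were lower at an adjusted p under 0.05 (limma, Benjamini-Hochberg), where 6.80% of all tested regions were higher, 2.92% lower and 9.72% called in either direction. With the authors' scaling in place of TMM, 4.81% of all calls were lower, against 30.03% here, and the domain's calls were the same 31. The median log2 change of the 41 was 2.35, against -0.0020 over all tested regions. A log2 change of at least 2 was present in 24 of them, against 2.97% of all tested regions. In 37 of the 41 both GrnKO values were above both WT values, which held for 35.8% of all tested regions. Of the 31 called regions 23 were intergenic, 6 lay in introns, 1 at a promoter and 1 in an exon of a non-coding RNA. Since the domain was chosen from this contrast, these counts only describe it. Without WT replicate 1, 34 of 45 were higher, where 9.85% of all tested regions were, and without GrnKO replicate 1, 21 of 44 were higher, where 2.00% of all tested regions were.

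**Figure D2:**
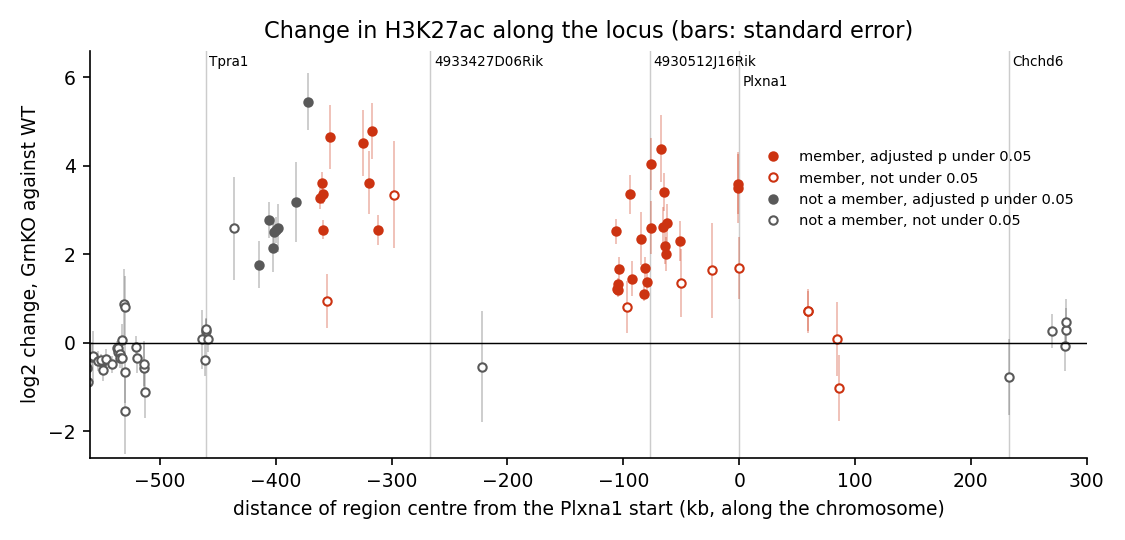
Log2 change of each tested region (GrnKO against WT, on the log2(value + 1) scale, with its standard error) against the distance from the Plxna1 start in kb, with regions of the domain in red, others in grey, and filled points at an adjusted p under 0.05. Between Tpra1 and Chchd6, filled points form 2 groups, from -415 to -312 kb and from -106 to -0.729 kb, and points beyond the Plxna1 start are open.

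Over tested regions, the median log2 change was 3.37 for 4933427D06Rik, 2.09 for 4930512J16Rik and 1.18 for Plxna1. Regions low in WT passed the filter only with high GrnKO values, so these medians do not rank the genes. 4933427D06Rik is on the plus strand. Of its regions, all intergenic, 12 lie from -95608 to -31054 bp of its start, and 1 lies 14606 bp after another of its starts. Their summed signal was 109 and 176 scaled tags in WT and 1595 and 1452 in GrnKO, a 10.7-fold difference (9.31-fold after TMM scaling). On the log2 scale the TMM value was 3.22, and 2.10 with the input change subtracted. That step rests on sparse inputs. WT input replicate 1 held 0 tags at these regions, and 55.1 of the 65.3 scaled tags of GrnKO input replicate 2 lay in 1 region. Of 13 regions 11 were tested and 9 were higher. At the strongest, from 89001696 to 89002496, values were 16.1 and 27.4 scaled tags in WT and 331 and 298 in GrnKO (log2 change 3.62, SE 0.24). In WT this region ranked at the 41.6th percentile of tested regions, and in GrnKO at the 95.4th. The region at 89003357 to 89004157 held 33.9 and 43.7 in WT and 265 and 274 in GrnKO (log2 change 2.55, SE 0.21). The region at 89002962 to 89003762, which overlaps the one before, held 17.4 and 29.3 in WT and 301 and 268 in GrnKO (log2 change 3.37, SE 0.25). In each of these regions the lower GrnKO value was several times the higher WT value.

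Beyond this group of strong regions, 5 of the higher 4933427D06Rik regions spread over the next 42.5 kb, and 4 of them had WT means of only 1.46 to 4.20 scaled tags. The region at 89045327 to 89046127 had 0.32 and 2.98 scaled tags in WT and 69.1 and 67.2 in GrnKO (log2 change 4.79, SE 0.62), the largest change in the domain. The region at 89050381 to 89051181, the last of the group, had 10.7 and 19.0 in WT and 119 and 87.6 in GrnKO (log2 change 2.54, SE 0.34). The next tested region, at 89064656 to 89065456, had 0 in both WT libraries and 11.3 and 8.74 in GrnKO, at least 5.63-fold higher with the floor of 3 tags per library, but it was not called. The start of 4933427D06Rik itself had no listed region within 1000 bp.

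Upstream of these regions, 10 regions that the table assigns to Tpra1, a membrane protein gene, lie over 20 kb from its start, outside the domain by their gene name, and 8 of them belong to the same stretch. Their sum was 79.7 and 64.6 scaled tags in WT and 560 and 584 in GrnKO, and 8 of 9 tested were higher. The region at 88990190 to 88990990 had 0 and 2.17 in WT and 73.4 and 91.6 in GrnKO (log2 change 5.45, SE 0.65). The 6 Tpra1 regions within 20 kb of its start did not take part. They summed to 246 and 209 in WT and 304 and 289 in GrnKO, and 0 of 4 tested were called. After TMM scaling the log2 value of these sums was 0.13. The edge of the called stretch thus lay among the distal Tpra1 regions, with 2 of them before it.

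The regions of 4930512J16Rik held most of the domain's signal in both genotypes. The gene is on the minus strand, its start region lies at -76.5 kb from the Plxna1 start, and its regions reach from 29597 bp downstream of its start to -26923 bp upstream. Their sum was 950.2 and 1009.6 scaled tags in WT and 3575 and 3205 in GrnKO, a 3.46-fold difference (2.95-fold after TMM scaling). On the log2 scale the TMM value was 1.56, and 1.99 with the input change subtracted. All 139.8 scaled tags of WT input replicate 1 at these regions lay in 1 region. Of 23 regions 22 were tested and 20 were higher, and in all 22 both GrnKO values were above both WT values.

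The strongest regions of 4930512J16Rik were already acetylated in WT. The region at 89257212 to 89258012 had 191 and 209.95 scaled tags in WT and 587 in both GrnKO libraries (log2 change 1.32, SE 0.14). Its WT level was at the 91.3rd percentile of tested regions and its GrnKO level at the 99.5th. The overlapping regions at 89256677 and 89257911 behaved alike, with 148 and 184 in WT and 465 and 442 in GrnKO for the first (log2 change 1.23, SE 0.15), and 159 and 194 in WT and 495 and 446 in GrnKO for the second (log2 change 1.19, SE 0.15). No WT value reached a GrnKO value at these sites. Inside the gene, a region in intron 1 of 3 at 89280380 to 89281180 had 105 and 120.4 in WT and 277 and 294 in GrnKO (log2 change 1.11, SE 0.17).

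The start of 4930512J16Rik, whose sequence is printed above, was near the floor in WT. Its region at 89285684 to 89286484 had 1.61 and 1.90 scaled tags in WT and 53.2 and 47.2 in GrnKO (log2 change 4.03, SE 0.59). Between this start and Plxna1, 8 regions of the gene were higher, at means of 3.56 to 15.9 in WT and 31.6 to 84.2 in GrnKO. They lay on the side of the start that faces Plxna1. The neighbouring region at 89289076 was too low to be tested and had 3.23 and 0.81 in WT and 1.83 and 1.5 in GrnKO.

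WT means of the 31 called regions were 1.25 to 201 scaled tags, and their GrnKO means were 24.4 to 587. A region low in WT could pass the filter and the call only with high GrnKO values, so nothing is read from larger changes at low WT levels. Over the 41 tested regions, Pearson's r of log2 values, given as a description, was 0.951 between the GrnKO libraries and 0.818 between the WT libraries. In GrnKO 10 regions had a mean of at least 200 scaled tags and carried 68.0% of the domain's GrnKO signal. The same regions carried 75.5% of its WT signal, at lower levels, and 1 of them reached a mean of 200 in WT. Of the neighbouring pairs in the domain 9 overlap and share tags. With non-overlapping regions alone, 26 of 35 tested were higher.

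**Figure D3:**
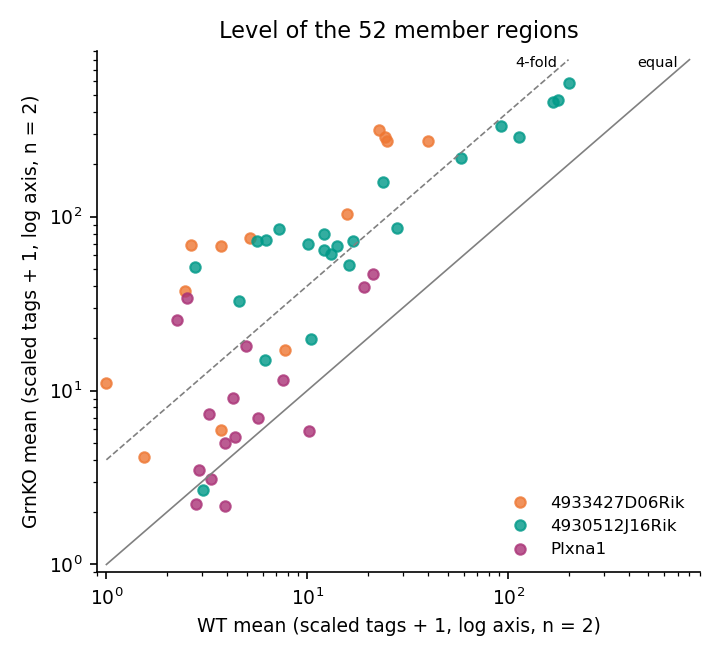
GrnKO mean against WT mean of the 52 regions (scaled tags + 1, both axes log, n = 2 libraries each), coloured by the gene they are assigned to, with lines for equal levels and for a 4-fold difference. The 4933427D06Rik regions with the highest GrnKO levels lie above the 4-fold line, the strong 4930512J16Rik regions run below it at WT means of 57.4 to 201, and most Plxna1 regions sit near the line of equal levels.

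At Plxna1 itself, the regions called higher were those just inside its start. Over its 16 regions the sum was 78.1 and 94.4 scaled tags in WT and 247 and 172 in GrnKO, a 2.43-fold difference (2.09-fold after TMM scaling). The input libraries moved the same way at these 16 regions, with 2.45 and 10.2 scaled tags in WT and 53.1 and 63.3 in GrnKO. With the input change subtracted, the log2 change of the Plxna1 sum went from 1.06 to -2.14, so its direction depends on that step. The step rests on few tags, 1.00 and 9.50 in the WT inputs. In GrnKO input replicate 2, 29.0 of 31.0 tags lay in 1 region. At the regions called higher, every input library had 0 tags. Of the 16, 8 were tested and 2 were higher. Both lie in intron 1 of 31, just inside the start. The region at 89361484 to 89362284 had 1.94 and 1.09 in WT and 29.1 and 37.4 in GrnKO (log2 change 3.59, SE 0.68). The region at 89361082 to 89361882, which overlaps it, had 0.32 and 2.17 in WT and 23.9 and 24.96 in GrnKO (log2 change 3.51, SE 0.80). At both, the WT values were under 3 scaled tags, near or below the floor, and every GrnKO value was above 20.

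Across the Plxna1 start the GrnKO values became smaller in the upstream direction. The region over the start, at 89362194 to 89362994, had 5.16 and 2.71 scaled tags in WT and 14.7 and 19.2 in GrnKO; both GrnKO values were above both WT values, but the region was not called. The next one, at 89362650 to 89363450, had 1.94 and 2.71 in WT and 1.22 and 3.00 in GrnKO and was too low to be tested. Even with the gain, the Plxna1 start stayed weak beside the distal regions. Its highest GrnKO mean within 1000 bp was 33.2 scaled tags, against 587 at the strongest region of 4930512J16Rik; both are levels of 800 bp regions.

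Upstream of Plxna1, inside the introns of Chchd6, the 9 regions more than 30 kb before the Plxna1 start showed no shared gain, and 0 of 4 tested were called. The region at 89421682 to 89422482 had 16.5 and 24.1 scaled tags in WT, 69.7 in GrnKO replicate 1 and 21.7 in GrnKO replicate 2. The region at 89421298 to 89422098, which overlaps it, had 11.3 and 24.96 in WT, 57.8 in GrnKO replicate 1 and 18.7 in GrnKO replicate 2. At both, GrnKO replicate 1 alone was high and the genotypes overlapped. These were the highest Plxna1 regions by mean level.

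No Chchd6 region was called. Its 4 regions summed to 19.7 and 10.0 scaled tags in WT and 7.34 and 22.5 in GrnKO, so the genotypes overlapped. The region over its start, at 89595216 to 89596016, had 2.26 and 4.07 in WT and 4.28 and 7.74 in GrnKO and was too low to be tested. The only tested region, at 89594751 to 89595551 in intron 1 of 6, had 14.2 and 4.07 in WT and 2.45 and 9.24 in GrnKO. No difference at Chchd6 was detected.

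**Figure D4:**
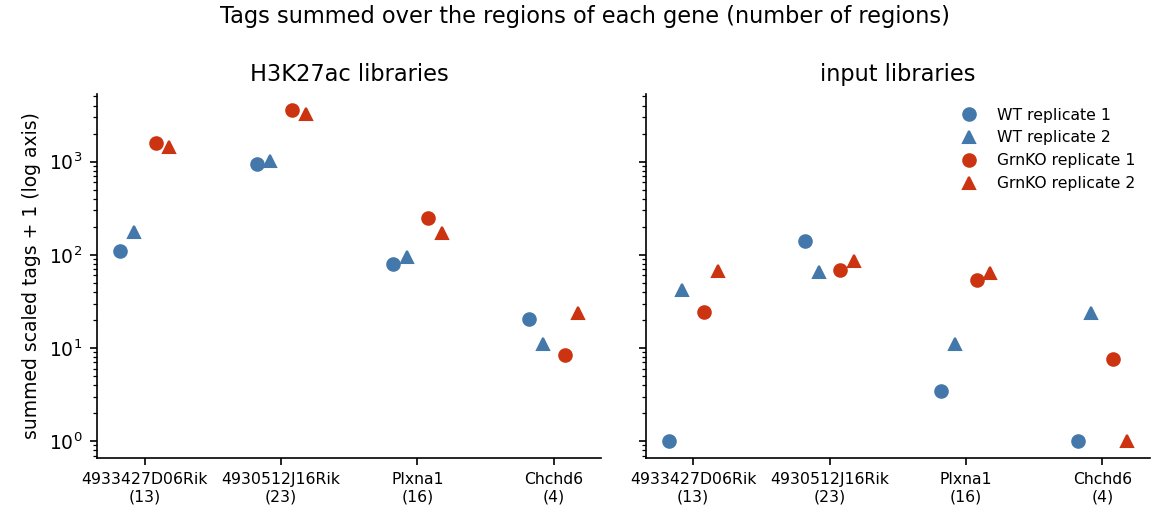
Scaled tags summed over the regions of each gene (plus 1, log axis; the number of regions in brackets) in each H3K27ac library (left) and each input library (right), circles for replicate 1 and triangles for replicate 2. On the left the GrnKO points of 4933427D06Rik, 4930512J16Rik and Plxna1 are above the WT points, and those of Chchd6 are mixed. On the right, values range from 0 to 139.8, and of the 4 genes only Plxna1 has both GrnKO points above both WT points.

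The edges of the gain were found by stepping from the strongest GrnKO region through regions called higher, as long as the next started within 50 kb. From 89257212 this gave a stretch from 89255728 to 89362284, 107 kb long, with 22 higher regions among 25 tested. It ended in intron 1 of Plxna1. With steps of at most 20 kb it ended before Plxna1, at 89312095, and was 56.4 kb long, because the last step to the Plxna1 start is 49.8 kb. Starting from the strongest 4933427D06Rik region, a choice made after the values were seen, gave a stretch from 88947517 to 89051181, 104 kb long, with 17 higher among 18 tested. With steps of at most 20 kb it ended at 89009436 and was 61.9 kb long, with 13 higher among 14 tested. No regions called higher lie in the 205 kb between the last start of this stretch and the first of the other. That interval held few listed regions. The 3 regions of the non-coding genes Gm1965 and Gm839 there summed to 7.74 and 1.63 scaled tags in WT and 11.3 and 0.25 in GrnKO.

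Beyond the window, the sums on both sides differed little between the genotypes, although single regions before it were called. In the 500 kb after the window, 13 regions were listed, 5 were tested and 0 were called, and their summed log2 change after TMM scaling was -0.09. In the 500 kb before the window, 52 of 73 regions were tested. Of these, 6 (11.5%) were higher, with log2 changes of 1.30 to 3.27, and 2 were lower. Over all tested regions the shares were 6.80% higher and 2.92% lower. The summed log2 change there was -0.07, a sum in which strong Abtb1 regions weigh most. The tested region next to the start of the first stretch, at 88926554, had 0 and 1.09 scaled tags in WT and 10.7 and 6.24 in GrnKO and was not called.

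The input libraries were not used to choose the domain. They were too sparse to settle whether recovered DNA differed there, with 25 to 50 of the 52 regions at 0 in each library. Over the 52 regions the inputs summed to 142 and 116 scaled tags in WT and 143 and 213 in GrnKO, which ranges from 58.0 to 207 tags per library. The WT mean was 129 ± 18.5 and the GrnKO mean 178 ± 49.5 (SD over 2 libraries), a log2 difference of 0.47. That value was unstable: it was 0.95 with TMM scaling, 0.15 to 0.72 with 1 input left out, and 1.59 without the region that held 57.0 of the 58.0 tags of WT replicate 1. The log2 difference for H3K27ac in the authors' scaling was 2.08. By an exact two-sided permutation test p was 0.333, which is the lowest that groups of 2 can reach. In the limma fit of the inputs 0 of the 41 tested regions passed an adjusted p of 0.05 and 0 had an unadjusted p under 0.05; over all 80728 regions 0.00% passed the first and 1.25% the second.

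Input tags were sparse and piled up in single regions. In WT replicate 1, 57.0 of 58.0 tags lay in 1 region, the 4930512J16Rik region at 89268044. At the Plxna1 regions of GrnKO replicate 2, 29.0 of 31.0 input tags lay in 1 region. At the 31 called regions of the domain the inputs summed to 139.8 and 80.2 in WT and 73.9 and 139.8 in GrnKO, with overlapping genotypes.

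The domain was set against all 5731 windows of 100 kb that held at least 5 tested regions. By median log2 change, the windows from 89000000, 89200000 and 89300000 were in places 5, 40 and 45, with medians of 3.37, 2.09 and 2.00. The window from 88900000, whose tested regions are those of Tpra1, was in place 20. The window from 89200000 had 19 of 20 tested regions called higher, the largest number of any window. The 15 consecutive tested regions from 89268044 to 89312095, all higher, tied with a run at Hnrnpll and Galm on chromosome 17 as the longest of 2970 such runs. These places describe where a domain chosen for its gain lies, and no test belongs to them.

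**Figure D5:**
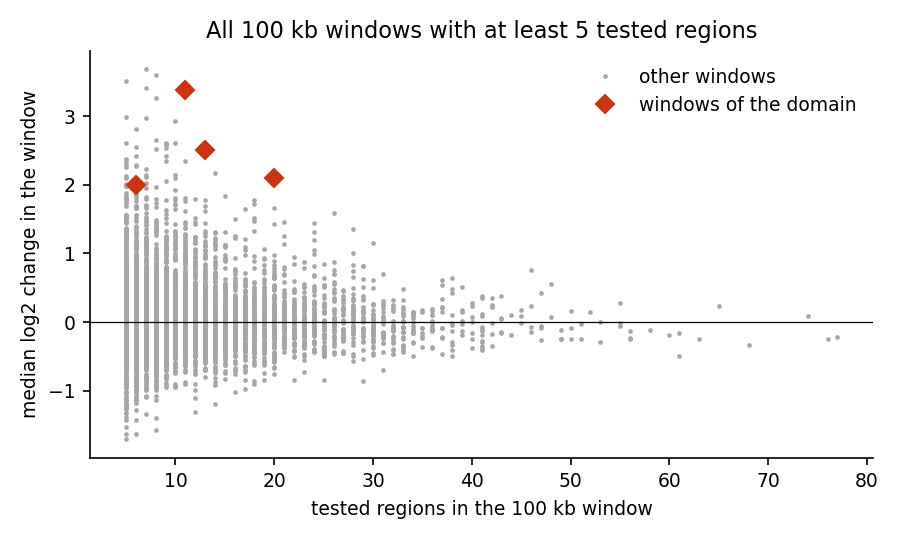
Median log2 change (GrnKO against WT) of each of 5731 windows of 100 kb against the number of tested regions in it, with the 4 windows of the interval from 88900000 to 89500000 as red diamonds. These have medians of 2.00 to 3.37, and the 1 with 20 tested regions has a higher median than every other window with at least 20.

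The other genes of semaphorin signalling were taken from a list of 33 plexins, neuropilins, semaphorins, Trem2 and Tyrobp, of which 29 were in the table. Leaving out the domain, 242 of their regions were tested, 31 were higher, 5 were lower, and the median log2 change was 0.11, beside 6.80% higher and -0.0020 over all regions. At the 5 genes of the list with the strongest regions, that region was not called. Plxnb2, a semaphorin 4 receptor, had log2 change 0.07 (SE 0.11, limma adjusted p = 0.768) at its strongest region, 0 of 17 called. Tyrobp had -0.05 (SE 0.13, limma adjusted p = 0.876) and Trem2 0.10 (SE 0.12, limma adjusted p = 0.683), with 1 of 7 and 0 of 6 regions higher. The ligand Sema4d had 0.18 (SE 0.14, limma adjusted p = 0.477) with 3 of 30 regions higher, and Sema4c -0.29 (SE 0.13, limma adjusted p = 0.182) with 0 of 16.

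The 31 higher regions belonged to 8 genes, receptors and ligands among them, and the 5 lower ones to the ligand genes Sema4a and Sema6a. Those named next were picked after their values were seen. Plxna2, which encodes another class A plexin, had 3 of 3 tested regions higher, and its strongest region held 29.4 and 8.14 scaled tags in WT and 148 and 120.1 in GrnKO (log2 change 2.79, SE 0.45, limma adjusted p = 0.000656). Plxnc1, the receptor of semaphorin 7A, had 11 of 25 higher, with log2 change 1.55 (SE 0.26, limma adjusted p = 0.000737) at its strongest region. Plxnd1 had 6 of 16 higher, and the ligand Sema4a had 4 of 11 lower. Of the 13 symbols searched for MICOS genes, 11 were in the table with 24 tested regions, of which 0 were higher and 0 lower, with a median log2 change of -0.05. The largest level was at Samm50, an outer membrane partner of the complex, with log2 change 0.30 (SE 0.19, limma adjusted p = 0.342).

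The genes whose summed profile over the 4 H3K27ac libraries was most like that of the domain were found among 8338 genes with at least 3 tested regions, by Euclidean distance of centred log2 values. They were Psmb6, a proteasome subunit gene (distance 0.104), Ddhd1, a phospholipase gene (0.158), 5830416I19Rik (0.160), Gdf15, which encodes a stress-induced cytokine (0.165), and Kifc3, a kinesin gene (0.181). Their log2 changes ranged from 1.76 to 1.98. With 4 libraries this likeness says only that the size of the change and the spread of replicates were similar.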

How the data were processed

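H3K27ac and input ChIP-seq of sorted nuclei was deposited as 1 table of 129304 regions. Per the file headers, the signal is tags per 800 bp region, which the authors scaled to 10000000 tags per library, at accessible regions from a merged ATAC-seq list. The submitters' processing notes name Bowtie2, HOMER, DESeq2 and mm10, without versions; duplicate handling is not given in the sources used here. Multiplied by the header totals, 100% of values in all 8 columns gave whole read ends, at 2 ends per tag, within 0.0200 ends.

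The design's test for values that are not raw counts was used: limma 3.58.1 (R 4.3.3) on log2(value + 1) after TMM scaling (edgeR 4.0.16), genotype only, over 80728 regions kept by filterByExpr (minimum 10 tags), with Benjamini-Hochberg adjustment at 0.05. The log2(value + 1) scale understates changes of low regions. The edgeR test and DESeq2 1.42.0 on recovered read ends were alternatives, called 6925 and 7612 regions against 7843, and were tested with limma on simulated data. Values of single libraries keep the scaling of the deposited table; log2 changes of single regions are after TMM. Regions were named by rule: the 3 strongest per gene, those within 1000 bp of a start, and those at the edges; others were named after their values were seen. The members and lists were chosen with earlier results of these data known.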

Additional observations from a re-analysis of the deposited data

How the results depend on the processing

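Of 93 values computed under alternatives, 26 moved and 1 reversed. Of the other 66, the 6 for the input sum kept only their direction, and the rest stayed within the spread of replicates, or within 1.5 times for counts and lengths; where no cause is named, it was not tested. The domain's count of higher regions, 31, was 31 with the edgeR test, the authors' scaling, a pseudocount of 5 and the replicate block, 29 with DESeq2, 32 without the filter, 26 with non-overlapping regions and 21 to 34 when 1 library was left out, which assumes that the lone library of a genotype varies like the others. No region of the domain was lower under any of these. The median log2 change, 2.35, was 2.58 with the authors' scaling, 1.89 with a pseudocount of 5, 1.72 without the filter, where low regions enter, and 1.96 to 2.54 with 1 library left out. The summed log2 change, 1.86, was 2.08 with the authors' scaling, 1.39 after subtracting the input change and 1.79 to 1.95 with 1 library left out. For Plxna1 alone subtracting the input change reversed the sum from 1.06 to -2.14, where WT inputs held 2.45 and 10.2 scaled tags. The gained stretch, 107 kb, was 56.4 kb with steps of at most 20 kb.

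Over all regions, the 2355 lower calls became 333 with the authors' scaling, which moves the median of all regions from -0.0020 to 0.22 and leaves 4.81% of calls lower against 30.03%. They became 1107 without the filter, 1565 with non-overlapping regions, of which fewer were tested, and 3988 with the replicate block. Leaving out 1 library gave 1810 to 9507 higher and 361 to 4612 lower calls, with 8806 and 4612 without WT replicate 1, 9507 and 4089 without WT replicate 2, 1810 and 361 without GrnKO replicate 1, and 2293 and 758 without GrnKO replicate 2. Over tested regions, the WT difference between replicates 1 and 2 correlated at 0.034 with the same difference in GrnKO. The main fit took no pairs, although replicate 2 of both genotypes shared the Y-linked signal. With the replicate block, 7403 regions were higher and 3988 lower, and no call in the domain changed. The input sum's log2 difference, 0.47, was 0.95 with TMM, 0.15 to 0.72 with 1 input left out and 1.59 without the region holding most WT replicate 1 tags, an alternative added after seeing the data. Depth limits the inputs, with 25 to 50 of the 52 regions at 0.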

Other observations

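Further from Plxna1, beyond the Tpra1 start, called regions of the 500 kb before the window lay at 3 genes, named after their values were seen. They were 6 higher (11.5%) and 2 lower of 52 tested, beside 6.80% higher and 2.92% lower over all tested regions. Near Kbtbd12, 3 regions were higher, with log2 changes of 1.60, 2.31 and 3.27 (limma adjusted p = 0.00133, 0.00186 and 7.21e-05). At Mgll, which encodes monoacylglycerol lipase, 3 regions were higher, with log2 changes of 1.36, 1.30 and 1.53, and 1 was lower at -0.77 (limma adjusted p = 0.00359, 0.000151, 3.57e-05 and 0.0464). At Abtb1 1 region was lower at -0.44 (limma adjusted p = 0.0324), with overlapping genotypes in the authors' scaling. The nearest of these to the gained stretch lies 136 kb before its first region.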
